A study of Mus musculus with 6 samples.

Results

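The HOX genes were taken as all protein-coding genes of the estimated count table whose symbol is Hox followed by a cluster letter from a to d and a number. This rule found 39 of the 53465 genes in the table: 11 in HoxA, 10 in HoxB, 9 in HoxC, and 9 in HoxD. Their RNA was measured in 4T1, a mouse mammary carcinoma cell line of Balb/c origin that metastasizes spontaneously, and compared between parental (P) cells and an axitinib-resistant (AxR) variant, with 3 poly(A)-selected RNA sequencing libraries per line. Axitinib is a tyrosine kinase inhibitor of the VEGF receptors. Per the study's methods, AxR cells came from a spontaneous metastasis of 4T1 cells implanted in mice treated with axitinib at 100 mg/kg/day, and were then kept in culture in 0.5 μM axitinib. The treatment labels name axitinib for AxR only, with an exposure of more than 2 months. The growth label names 0.5 μM axitinib for all 6 samples, so the labels alone do not settle whether P cells were exposed in culture. The study's paper describes P cells as vehicle-treated, and its methods give axitinib culture for resistant cells only. The lines differ at once in their passage through the animal, in their origin in a metastasis, and in drug exposure, and these cannot be told apart. AxR is a single derived line here, and the labels do not say whether its 3 libraries were separate cultures, so that p-values measure the spread between libraries, which may be technical.

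HOX genes encode homeodomain transcription factors that set position along the head-to-tail axis of the embryo and along limbs and the genital tract. They lie in clusters in which gene order follows the order of expression along the body, with low numbers toward the head and high numbers toward the tail and limb tips, and genes with the same number in different clusters are paralogs. They bind DNA together with PBX and MEIS family cofactors. Polycomb complexes hold silent clusters off and trithorax complexes keep active genes on, retinoic acid switches on low-numbered genes, and adult epithelia, the mammary gland included, keep part of their HOX expression.

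Total estimated counts lay between 15495260 and 17294525 per library. Levels are given in CPM, estimated counts scaled to a common library size after upper quartile normalization, and 3 counts, the upper limit that a count of 0 allows, corresponded to between 0.171 and 0.196 CPM. Intervals and limits of this kind cover counting error only. A gene was tested if it passed a filter on low counts, which asks for 0.615 CPM in at least 3 libraries, and was called higher or lower in AxR at an adjusted p under 0.05. Of the 13550 genes tested, 63.5% were called, 32.8% as higher and 30.8% as lower in AxR, so a call by itself says little about a gene here. Libraries of the same line were distinct, and none was left out.

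In both lines the measured HOX code came almost wholly from HoxA. HOX genes together had 2269 to 2608 estimated counts per library in P and 1252 to 1397 in AxR, and HoxA genes held 98.9% to 99.2% of these counts in P and 98.0% to 98.8% in AxR. Of the 39 HOX genes, 10 passed the filter, and 9 of those were HoxA genes. In AxR, 7 of the 10 were lower, 1 was higher, and 2 were not called, where 30.8% of all tested genes were called lower and 32.8% higher. Hoxa13, of the 7, passed the filter only through the P libraries, where it was higher, and so had to differ. Of the 8 genes at or above the filter level in all 3 libraries of both lines, 6 were lower and 1 was higher. The 10 tested genes had a median log2 fold change of -0.72, beside 0.0058 over all genes tested. The summed level of HoxA fell outside the range of P in every AxR library, at 136 to 157 CPM in P and 77.9 to 84.9 CPM in AxR. In bulk RNA, fewer cells that transcribe a gene and less RNA of it per cell cannot be told apart.

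**Figure D1:**
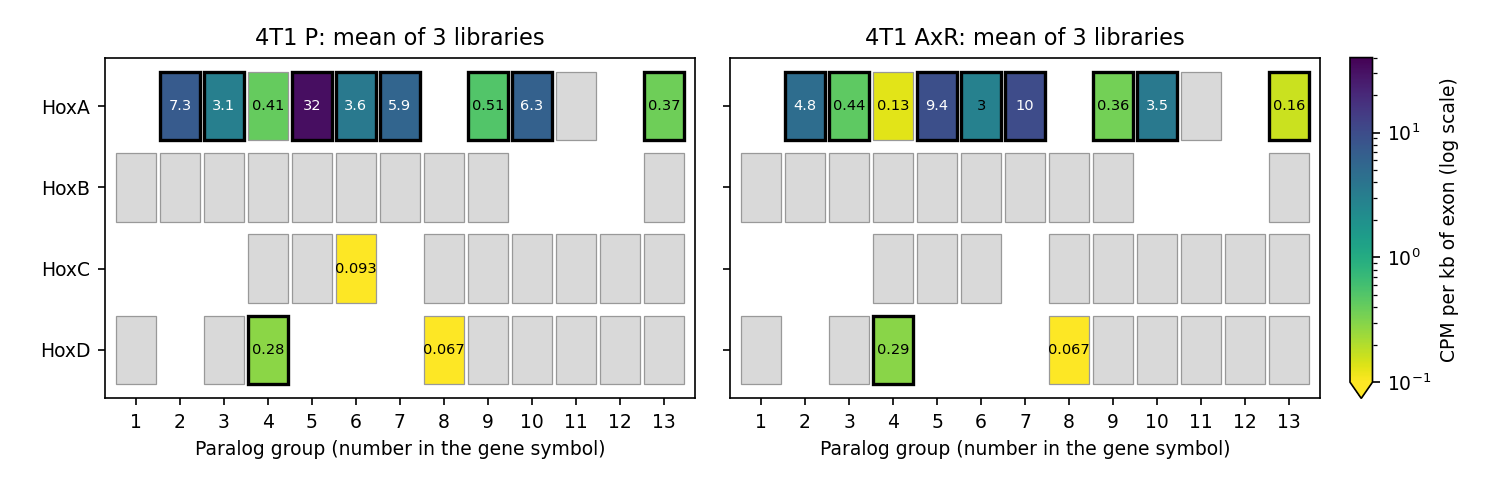
Grid of 38 HOX genes by cluster (rows) and paralog number (columns) for P and AxR, with colour and number giving the mean CPM per kb of exon over 3 libraries on a log scale, grey tiles for genes with at most 3 counts in each library of the line, and thick borders for tested genes. The high values sit in the HoxA row in both lines, all 10 HoxB genes are grey, and the darkest tile is Hoxa5 in P (32.3 CPM per kb).

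HoxB, the cluster on chromosome 11 (96194316 to 96368256, GRCm38), had no count in any library for any of its 10 genes, Hoxb1 to Hoxb9 and Hoxb13. At 3 counts, the limit for each of these genes was below 0.2 CPM per library. HoxC, on chromosome 15 (102921103 to 103036852), had no gene that passed the filter. Hoxc8 to Hoxc13, 6 genes, had no count, and Hoxc4, Hoxc5, and Hoxc6 had at most 3, 2, and 6 counts in a library. The highest of these, 6 counts of Hoxc6, was in P replicate 1. The HoxC genes summed to 2 to 7 counts per library in P and 4 to 8 in AxR, and these ranges overlapped.

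HoxD, on chromosome 2 (74668310 to 74765142), was represented above the filter by Hoxd4 alone. Hoxd1, Hoxd10, Hoxd11, and Hoxd12 had no count, Hoxd9 and Hoxd13 had 1 count in 1 library each, Hoxd3 had 2 counts in 1 library of each line (2.01 in P and 2 in AxR), and Hoxd8 had 2 to 4 counts in each of the 6 libraries. Hoxd4, a low-numbered gene of the hindbrain and neck region, was at 0.851, 0.808, and 0.848 CPM in P replicates 1 to 3 and at 0.953, 1.15, and 0.455 CPM in AxR replicates 1 to 3. The lines overlapped, with AxR on both sides of P, and the log2 fold change of 0.01 ± 0.365 (SE) was not called (edgeR's quasi-likelihood test, adjusted p = 0.983). The Hoxd4 gene model shares 39.1% of its exon bases with Gm28230 and 13.2% with Hoxd3 on the same strand, so reads of these models can be divided among them.

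Genes with no library of a line above 3 counts, termed at the floor, numbered 26 in P and 27 in AxR, with 26 in common. The single difference was Hoxc6, through its 6 counts in 1 P library. For these genes a difference between the lines was not detectable at this depth.

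HoxA lies on chromosome 6 between 52155590 and 52260880 (GRCm38), with all 11 genes on the minus strand and Hoxa13 at the upstream end. The largest falls were Hoxa3 and Hoxa5 and the sole rise was Hoxa7, whose gene model is the next one upstream of Hoxa3. Their promoter windows are therefore shown first, each covering 250 bases before to 50 bases after the RefSeq transcription start in GRCm38.p6, 5′ to 3′ on the minus strand. Capitals mark matches, on either strand, to a MEIS core (TGACAG), to the letters of the CCAAT box, and to a retinoid receptor half-site (AGGTCA), and lower case is all other sequence. A TATA box (TATAAA) and a PBX-HOX core (TGATNNAT) were also searched and had no match in these 3 windows.
Hoxa3 (chr6:52213018-52213317): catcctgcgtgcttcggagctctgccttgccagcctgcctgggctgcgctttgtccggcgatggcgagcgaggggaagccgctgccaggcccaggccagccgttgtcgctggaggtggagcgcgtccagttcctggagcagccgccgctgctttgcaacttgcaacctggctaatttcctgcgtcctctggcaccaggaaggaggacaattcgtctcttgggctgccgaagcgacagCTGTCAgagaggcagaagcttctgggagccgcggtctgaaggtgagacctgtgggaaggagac
Hoxa5 (chr6:52204538-52204837): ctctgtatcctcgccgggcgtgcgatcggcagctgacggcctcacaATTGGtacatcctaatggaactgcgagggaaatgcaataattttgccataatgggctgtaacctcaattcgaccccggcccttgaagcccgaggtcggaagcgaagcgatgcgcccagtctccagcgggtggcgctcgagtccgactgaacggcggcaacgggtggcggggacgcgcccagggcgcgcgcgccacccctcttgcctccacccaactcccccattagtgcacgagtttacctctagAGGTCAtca
Hoxa7 (chr6:52218524-52218823): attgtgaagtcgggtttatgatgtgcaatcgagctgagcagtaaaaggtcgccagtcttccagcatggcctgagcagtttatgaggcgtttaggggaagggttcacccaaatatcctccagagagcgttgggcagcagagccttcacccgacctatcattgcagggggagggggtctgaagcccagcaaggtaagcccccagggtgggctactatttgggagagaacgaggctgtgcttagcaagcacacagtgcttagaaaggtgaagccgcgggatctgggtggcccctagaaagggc

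The Hoxa3 window had 20 CpG dinucleotides, the Hoxa5 window 29, and the Hoxa7 window 9, where the median over 32851 RefSeq promoter windows of this length was 7. In the Hoxa3 window a match to the MEIS core began 13 bases before the start and read as its reverse complement, CTGTCA. In the Hoxa5 window a CCAAT match on the opposite strand, ATTGG, began 204 bases before the start, and a retinoid half-site began 41 bases after it. The Hoxa7 window held none of the 5 motifs. These motifs are short and common: 19.2% of all windows held the MEIS core, 37.4% the CCAAT box, 16.3% the retinoid half-site, 13.6% the TATA box, and 8.85% the PBX-HOX core. Windows were found for 22 of the 39 HOX genes (24 windows), of which 2 held the MEIS core, 15 the CCAAT box, 7 the retinoid half-site, 4 the TATA box, and 4 the PBX-HOX core. Their median CpG number was 14.5 and their median GC content was 57.7%, against 52.7% over all windows. A match is a match of letters and no evidence of binding.

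At the low-numbered end of HoxA, Hoxa2, which gives the second pharyngeal arch its identity, was at 12.8, 12.6, and 13.5 CPM in P and at 7.62, 8.23, and 9.61 CPM in AxR. The lines did not overlap, with AxR replicate 3 nearest to P, and the log2 fold change was -0.61 ± 0.1099 (SE; edgeR's quasi-likelihood test, adjusted p = 0.000184).

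Hoxa3, which patterns the third pharyngeal arch with its thymus and parathyroid, fell the most of all HOX genes. It was at 21.2, 16.6, and 17.6 CPM in P and at 2.54, 3.00, and 2.39 CPM in AxR, or 18.4 ± 2.40 and 2.64 ± 0.317 CPM (mean ± SD, n = 3 each). The lowest P library was far above the highest AxR library. The log2 fold change was -2.80 ± 0.141 (SE; edgeR's quasi-likelihood test, adjusted p = 2.40e-10), and 152 of the 13550 tested genes (1.12%) had a change as low or lower. The Hoxa3 gene model (ENSMUSG00000079560.13) spans 44.3 kb from 52169062 to 52213336 and encloses Hoxa4, Hoxa5, and Hoxa6, ending 1.16 kb from the Hoxa7 model. It shares 8.01% of its exon bases with Gm28308 on its own strand and 8.36% with Hoxaas2 on the other, and with the counts of such overlapping models added to it the log2 fold change was -2.74 for the same strand and -2.53 for the opposite strand.

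Hoxa4, a paralog of Hoxd4, did not pass the filter and was not tested with the others. It had 13, 8.91, and 10.5 estimated counts in P and 5, 4, and 1 in AxR, and so was lower in every AxR library than in every P library. Without the filter its log2 fold change was -1.64 (edgeR's quasi-likelihood test, adjusted p = 0.0152). Without P replicate 2 it passed the filter, but only through the other P libraries, where it was higher, so the log2 fold change of -1.78 in that setting (edgeR, adjusted p = 0.0162) is given as a value and not as support.

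Hoxa5, which acts in lung, gut, and axial skeleton development and is known to be expressed in the mammary epithelium, was the most abundant HOX gene of P. It was at 65.6, 55.7, and 60.9 CPM in P replicates 1 to 3 and at 16.2, 19.8, and 17.2 CPM in AxR replicates 1 to 3, or 60.7 ± 4.96 and 17.7 ± 1.88 CPM (mean ± SD, n = 3 each). No AxR library came near the lowest P library. The log2 fold change was -1.78 ± 0.0861 (SE; edgeR's quasi-likelihood test, adjusted p = 1.65e-10), and 283 tested genes (2.09%) had a change as low or lower. The Hoxa5 model (ENSMUSG00000038253.6, 52201754 to 52204587) shares no exon bases with another model.

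Hoxa6, between Hoxa5 and Hoxa7, was at 3.22, 3.29, and 2.80 CPM in P and at 2.98, 2.49, and 2.33 CPM in AxR. The lines overlapped, and the log2 fold change of -0.26 ± 0.188 (SE) was not called (edgeR's quasi-likelihood test, adjusted p = 0.240).

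Hoxa7, a gene of the thoracic axis, was the only HOX gene that rose. It was at 18.0, 15.8, and 16.8 CPM in P and at 29.8, 32.8, and 26.1 CPM in AxR, or 16.9 ± 1.09 and 29.6 ± 3.34 CPM (mean ± SD, n = 3 each). Every AxR library was above every P library. The log2 fold change was 0.81 ± 0.0915 (SE; edgeR's quasi-likelihood test, adjusted p = 1.84e-06). The Hoxa7 model (ENSMUSG00000038236.8, 52214491 to 52221854) shares 20.4% of its exon bases with the antisense gene Hoxaas3, and with the counts of Hoxaas3 added the log2 fold change was 0.76. The libraries were made with a stranded kit, while the strand setting of the counting was not given in the sources used here.

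**Figure D2:**
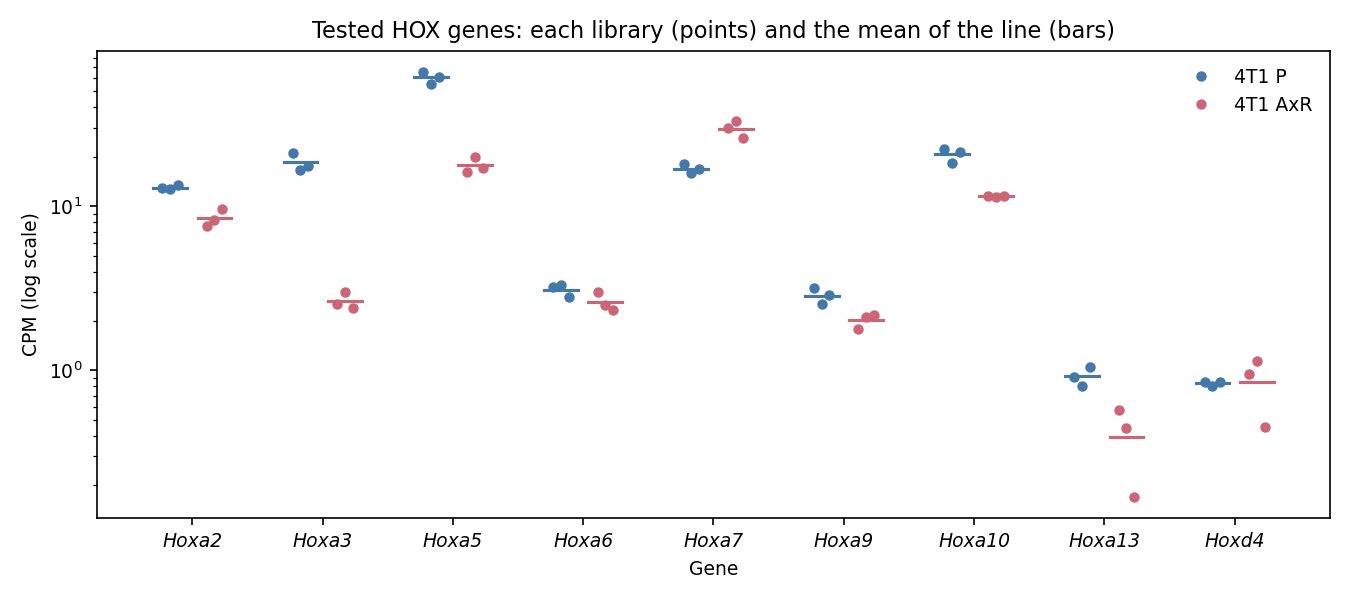
Level in CPM (log axis) of 9 tested HOX genes in each of the 3 P and 3 AxR libraries, with 1 point per library and a bar at the mean of each line. The points of the lines are apart for Hoxa3 (16.6 to 21.2 CPM in P, 2.39 to 3.00 in AxR) and Hoxa5, reversed in order for Hoxa7, and mixed for Hoxa6 and Hoxd4.

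At the high-numbered end, Hoxa9, known for its part in blood progenitors and acute leukaemia, was at 3.16, 2.54, and 2.87 CPM in P and at 1.78, 2.10, and 2.16 CPM in AxR. The lines did not overlap, but the log2 fold change of -0.50 ± 0.202 (SE) was close to the threshold (edgeR's quasi-likelihood test, adjusted p = 0.0426). The call was lost with DESeq2 (adjusted p = 0.133), without P replicate 1 or 3 (adjusted p = 0.148 and 0.0901 in edgeR), and without AxR replicate 1, 2, or 3 (0.129, 0.0702, and 0.0504 in edgeR). Hoxa10, which is needed in the uterus and acts in the lumbar axis, was at 22.4, 18.4, and 21.4 CPM in P and at 11.6, 11.4, and 11.5 CPM in AxR. The AxR libraries lay close together and well below P, and the log2 fold change was -0.85 ± 0.0935 (SE; edgeR, adjusted p = 1.34e-06).

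Hoxa11, a uterus and forearm gene, had 1 count in P replicate 2, 1 count in AxR replicate 3, and none in the other libraries. Hoxa13, of the digits and the genital tubercle, was at 0.912, 0.808, and 1.04 CPM in P and at 0.572, 0.446, and 0.171 CPM in AxR, and no AxR library reached a P library. It passed the filter through its 3 P libraries alone, so a gene at this level entered the test only by being higher in P. Its log2 fold change was -1.22 ± 0.414 (SE; edgeR's quasi-likelihood test, adjusted p = 0.0176). Without AxR replicate 3, the lowest library, the value was -0.84 and the call was lost (edgeR, adjusted p = 0.0882), as it was without P replicate 3 (edgeR, adjusted p = 0.0638) and with DESeq2 (adjusted p = 0.0658).

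Across the 10 tested HOX genes, the libraries of the lines did not overlap for 8, of which 7 had AxR below P. Hoxa13, of the 7, had no AxR library past the filter level, so the filter fixed its place below P. Of all tested genes, 68.3% did not overlap between the lines and 33.2% had AxR below P. An exact two-sided permutation test of a single gene over 3 against 3 libraries cannot give a p below 0.1, and all 8 genes gave that value. At a fold of at least 2 in either direction, 3 HOX genes were called lower (Hoxa3, Hoxa5, and Hoxa13) and none higher, or 2 lower without Hoxa13, which passed the filter through P alone and lost its call in 3 alternatives. By that rule 4.72% of tested genes were called lower and 7.99% higher.

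Along HoxA the changes did not follow the order of the genes from low to high numbers. From Hoxa2 the log2 fold change went from -0.61 to -2.80 at Hoxa3 and -1.78 at Hoxa5, then to -0.26 at Hoxa6 and 0.81 at Hoxa7, and back to -0.50 at Hoxa9, -0.85 at Hoxa10, and -1.22 at Hoxa13. The median over the 9 tested HoxA genes was -0.83. On chromosome 6 as a whole the 659 genes tested were centred at a median of 0.0081, with 62.1% called.

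**Figure D3:**
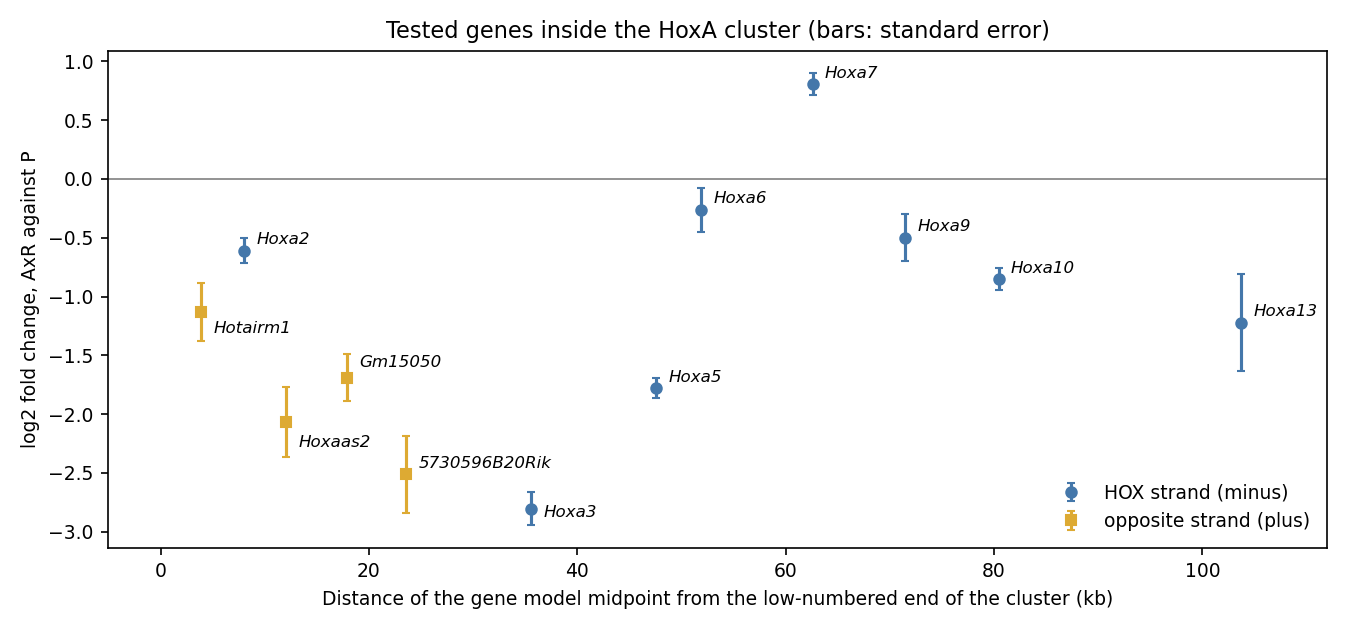
Log2 fold change (AxR against P, with the SE as error bars) of 12 tested genes inside HoxA against the distance of its midpoint from the low-numbered end of the cluster in kb, with minus-strand HOX genes and plus-strand genes marked apart. The 4 plus-strand genes lie in the first 24 kb, between -1.13 and -2.51, and Hoxa7, at 62.6 kb, is the only gene above 0.

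Genes on the opposite strand at the low-numbered end of HoxA were also called lower, 2 of them (Hotairm1 and Gm15050) with all 6 libraries past the filter level. Hotairm1, a long noncoding RNA of the low-numbered end that is known from myeloid cells, was at 3.10, 3.58, and 3.85 CPM in P and at 1.97, 1.91, and 0.967 CPM in AxR, with a log2 fold change of -1.13 ± 0.245 (SE; edgeR's quasi-likelihood test, adjusted p = 0.000909). Hoxaas2 was at 4.62, 3.23, and 2.48 CPM in P and at 1.02, 0.893, and 0.569 CPM in AxR, with a log2 fold change of -2.07 ± 0.298 (SE; edgeR, adjusted p = 2.14e-05). Gm15050 was at 3.89, 4.50, and 3.91 CPM in P and at 1.33, 1.34, and 1.14 CPM in AxR, with a log2 fold change of -1.69 ± 0.201 (SE; edgeR, adjusted p = 2.95e-06). In each of these genes all AxR libraries were below all P libraries. The gene 5730596B20Rik, annotated as protein-coding and overlapping Hoxa3, fell from 2.61, 2.43, and 2.41 CPM in P to 0.699, 0.319, and 0.284 CPM in AxR, with a log2 fold change of -2.51 ± 0.325 (SE; edgeR, adjusted p = 7.18e-06). It reached the filter level in 3 P libraries and 1 AxR library, and Hoxaas2 in 3 and 2, so both entered the test through P, where they were higher.

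Over the 4 clusters, 43 genes not annotated as protein-coding lay between the outermost HOX genes. Of these, 31 had no count, 5 were tested, and 4 were called lower in AxR and none higher. Hoxaas2 and Hoxd3os1 entered the test through their P libraries, and of the 3 genes past the filter level in all 6 libraries, 2 were called lower, where the share over all tested genes was 30.8%. The fourth beside the 3 of HoxA was Hoxd3os1, antisense to Hoxd3 and Hoxd4, at 0.669, 1.10, and 0.913 CPM in P and 0.508, 0.319, and 0.228 CPM in AxR, with a log2 fold change of -1.35 (edgeR's quasi-likelihood test, adjusted p = 0.00988). No AxR library of Hoxd3os1 reached the filter level. The tested gene that was not called was Gm11539, inside HoxB, at 2.01 to 3.00 CPM in P and 1.88 to 2.04 CPM in AxR (log2 fold change -0.27). Hotair, the long noncoding RNA of HoxC, had no count in any library. The microRNA genes of the clusters, such as Mir196b, had none either, and poly(A)-selected libraries of this kind do not capture mature microRNAs.

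With the levels divided by exon length, so that genes could be set side by side, Hoxa5 led in P at 32.3 CPM per kb, followed among the genes given here by Hoxa2 at 7.32, Hoxa10 at 6.34, Hoxa7 at 5.87, Hoxa6 at 3.55, Hoxa3 at 3.07, Hoxa9 at 0.512, Hoxa13 at 0.373, and Hoxd4 at 0.283 CPM per kb. In this order, the ranges of the 3 P libraries overlapped between Hoxa10 and Hoxa7 and between Hoxa6 and Hoxa3. In AxR, Hoxa7 came first at 10.3 CPM per kb, followed by Hoxa5 at 9.45, Hoxa2 at 4.78, Hoxa10 at 3.51, Hoxa6 at 2.98, Hoxa3 at 0.439, Hoxa9 at 0.361, Hoxd4 at 0.289, and Hoxa13 at 0.160 CPM per kb. The AxR ranges overlapped between Hoxa7 and Hoxa5, between Hoxa9 and Hoxd4, and between Hoxd4 and Hoxa13. With the longest annotated transcript as the length, 5 genes of P changed their place in the order, Hoxa2, Hoxa3, Hoxa6, and Hoxa7 among them, while Hoxa5 stayed first.

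Hoxa5 thus led in P, whereas the ranges of Hoxa7 and Hoxa5 overlapped at the head of AxR. Hoxa5 made up 49.4% to 51.5% of the summed HoxA level per kb in P and 25.8% to 29.3% in AxR. Hoxa7 made up 9.14% to 9.21% in P and 26.9% to 31.6% in AxR. By estimated counts within a library, Hoxa5 was 3.52 to 3.64 times Hoxa7 in P, and Hoxa7 was 1.52 to 1.84 times Hoxa5 in AxR, and no scaling between libraries enters these ratios. Among all tested genes by CPM per kb, Hoxa5 went from percentile 88.7 in P to 61.3 in AxR, Hoxa7 from 48.1 to 63.8, and Hoxa3 from 33.4 to 8.25.

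**Figure D4:**
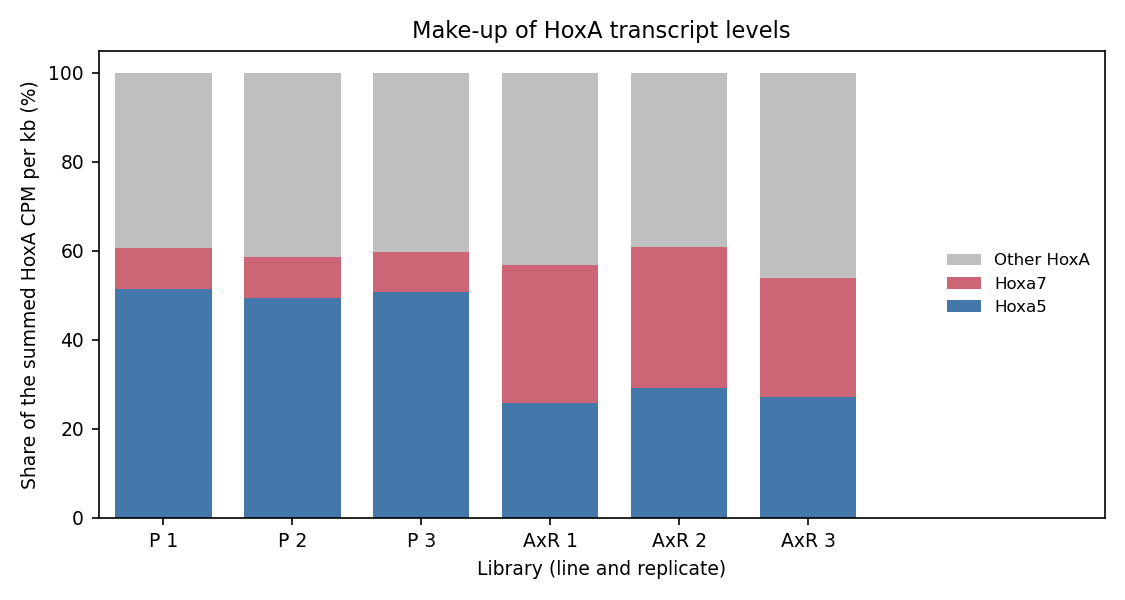
Share of the summed HoxA level per kb of exon (percent) held by Hoxa5, by Hoxa7, and by the other HoxA genes in each of the 6 libraries, as stacked bars that start at 0. Hoxa5 holds 49.4% to 51.5% in the P libraries and 25.8% to 29.3% in the AxR libraries, while the share of Hoxa7 widens from about 9.2% to 26.9% or more.

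The genes that flank the clusters, 5 protein-coding genes on each side of each cluster, moved in both directions. Of these 40 neighbours, 32 passed the filter. In AxR 14 of them were higher and 6 lower, or 62.5% called beside the background of 63.5%, with a median log2 fold change of 0.19. Around HoxA, 9 were tested, of which 4 were lower and 2 higher. Skap2, an adaptor protein of immune cell adhesion that lies beyond the low-numbered end, fell from 104 ± 5.73 to 53.9 ± 1.70 CPM (mean ± SD, n = 3 each), with a log2 fold change of -0.95 (edgeR's quasi-likelihood test, adjusted p = 2.24e-09). Jazf1, a zinc finger gene on the other side, fell from 2.54 ± 0.485 to 0.531 ± 0.0958 CPM, with a log2 fold change of -2.24 (edgeR, adjusted p = 7.88e-06). It was the only neighbour called at a fold of 2 or more, and it passed the filter through its 3 P libraries, with no AxR library at that level. Snx10 and Creb5 were also lower (-0.35 and -0.66), and Hnrnpa2b1 and Tax1bp1 were higher (0.52 and 0.26). Evx1, the homeobox gene next to Hoxa13, had 1 count in all.

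Cofactors of HOX proteins changed in both directions. Of 9 PBX, MEIS, and PKNOX genes, 8 passed the filter, of which 4 rose and 3 fell (87.5% called, beside 63.5% of all genes tested), with a median log2 fold change of 0.13. The largest rise was in Pknox2, which encodes a MEIS-related partner of PBX proteins. It was at 0.729, 0.520, and 0.978 CPM in P and at 11.2, 13.4, and 13.8 CPM in AxR, with a log2 fold change of 4.11 ± 0.194 (SE; edgeR's quasi-likelihood test, adjusted p = 1.25e-10). The lines were far apart. Pknox2 reached the filter level in 3 AxR libraries and 2 P libraries, and so entered the test through AxR, where it was higher. Pbx3 and Pbx2, which encode direct DNA-binding partners of HOX proteins, rose by smaller amounts, with log2 fold changes of 0.63 and 0.36 (edgeR, adjusted p = 3.57e-06 and 0.00112). All 3 MEIS genes fell by little. Meis1 went from 10.97 ± 0.583 to 8.51 ± 0.697 CPM, and the log2 fold changes were -0.37 for Meis1, -0.37 for Meis2, and -0.45 for Meis3 (edgeR, adjusted p = 0.00772, 0.0136, and 0.0120).

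**Figure D5:**
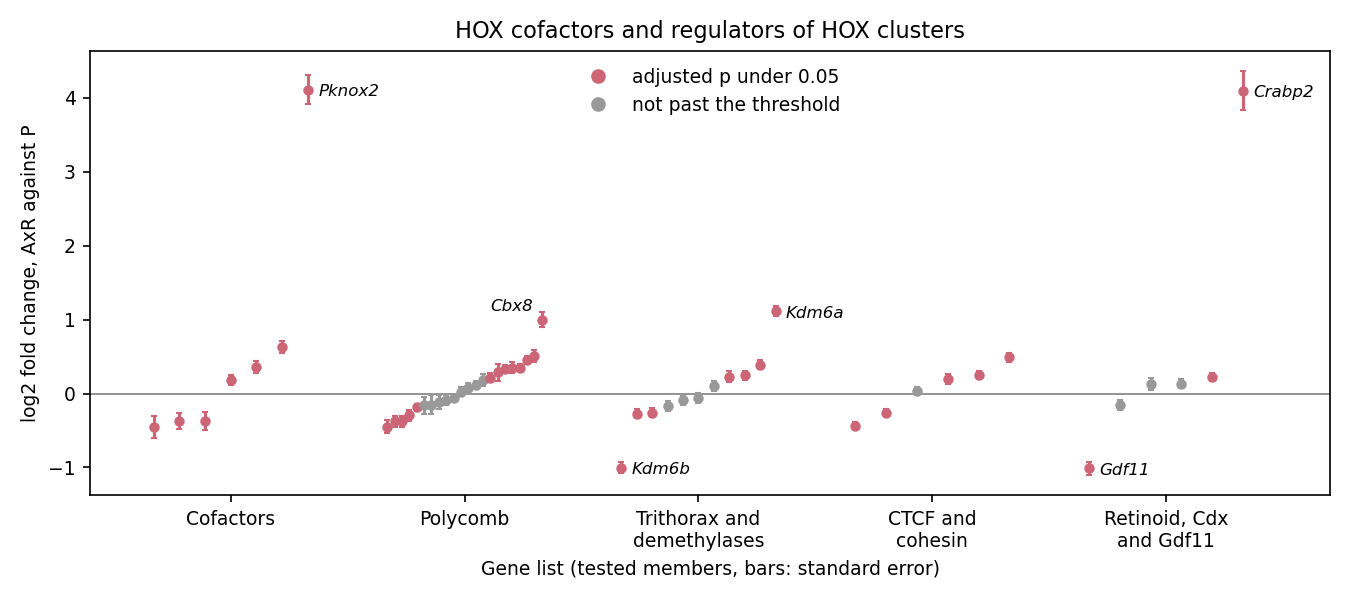
Log2 fold change (AxR against P, with the SE as error bars) of 7 HOX cofactor genes and 45 regulator genes by class, with red points at an adjusted p under 0.05 in edgeR's quasi-likelihood test and grey points otherwise. Pknox2 (4.11) and Crabp2 (4.10) stand far above the rest, which lie between -1.01 and 1.11.

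Of 58 genes known to act on HOX clusters, 46 passed the filter. AxR had 18 of them higher and 11 lower. This is 63.0% called, beside the background of 63.5%, and the median log2 fold change was 0.09. Among 23 Polycomb genes, 9 were higher and 5 lower, among 11 trithorax and demethylase genes 4 and 3, among 6 CTCF and cohesin genes 3 and 2, and among the 6 tested of 18 retinoid and Cdx genes 2 and 1. With a fold of at least 2 required as well, 6 of the 46 were called, 4 higher and 2 lower. By that rule 7.99% of all tested genes were called higher and 4.72% lower. Of the 45 regulators past the filter level in 3 libraries of both lines, which leaves out Crabp2, 3 were higher and 2 lower. Kdm6a and Kdm6b, demethylases that remove the Polycomb mark on histone H3 lysine 27, moved in opposite directions. Kdm6a was at 21.9, 21.9, and 21.3 CPM in P and at 48.5, 47.9, and 44.5 CPM in AxR, with a log2 fold change of 1.11 ± 0.0686 (SE; edgeR's quasi-likelihood test, adjusted p = 2.30e-09). Kdm6b was at 66.5, 71.2, and 63.6 CPM in P and at 31.0, 32.1, and 37.3 CPM in AxR, with a log2 fold change of -1.003 ± 0.0756 (SE; edgeR, adjusted p = 2.26e-08). Neither gene overlapped between the lines.

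Of the Polycomb genes, Rnf2, which encodes the catalytic ubiquitin ligase of Polycomb complex 1, was at 125, 98.0, and 126 CPM in P and at 81.5, 89.2, and 84.7 CPM in AxR, with a log2 fold change of -0.45 (edgeR, adjusted p = 0.000707). P replicate 2 was the library of P nearest to AxR. Of the retinoid genes, Crabp2, which carries retinoic acid to its nuclear receptors, was at 0.425, 0.462, and 0.196 CPM in P and at 5.40, 7.21, and 6.60 CPM in AxR, with a log2 fold change of 4.10 ± 0.265 (SE; edgeR, adjusted p = 3.81e-09). It was under the filter level in every P library and entered the test through AxR, where it was higher, and the size of this fold rests on few P counts. Gdf11, a TGF-beta family ligand that sets the trunk-to-tail switch of HOX expression in the embryo, fell from 19.2 ± 0.517 to 9.51 ± 0.641 CPM, with a log2 fold change of -1.01 (edgeR, adjusted p = 1.43e-07). Cdx1, Cdx2, Cdx4, Rxrg, Crabp1, and Aldh1a2 had no count in any library.

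Markers of other cell types were set beside these results, since AxR was derived from a metastatic lesion. All 7 tested of 8 epithelial markers were called, 5 higher and 2 lower, where 63.5% of all tested genes were called. The largest change was the fall of Cldn7, a tight junction gene, from 8.22 ± 1.18 to 0.751 ± 0.108 CPM (mean ± SD, n = 3 each), with a log2 fold change of -3.43 (edgeR's quasi-likelihood test, adjusted p = 1.66e-09). The summed level of the list, carried mostly by Krt18, Cdh1, and Krt8, was 1787 to 1948 CPM in P and 2535 to 2621 CPM in AxR, with Krt5 at 0. Of 10 fibroblast markers, 2 were tested. Postn rose from 9.56 to 270 CPM (log2 fold change 4.82, edgeR's quasi-likelihood test, adjusted p = 5.88e-15) and Pdgfra fell (-1.15), while Col3a1, Lum, and Thy1 were at 0 in every library and Dcn was at the floor. The summed fibroblast level was 31.5 to 34.9 CPM in P and 269 to 294 CPM in AxR. This sum was mostly Pdgfra in P (mean 22.6 CPM, and 10.1 in AxR) and mostly Postn in AxR. Its rise is thus that of Postn and not of the list. Of the untested members, Pdgfrb had no count in P and 5, 6, and 4 counts in AxR. Col1a2 had 0, 0, and 2 counts in P and 3, 5, and 3 in AxR. Col1a1 went the other way with overlap, from 14, 10, and 3 counts to 4, 5, and 3, and Fap had at most 4 counts. Leukocyte markers summed to 3.52 to 3.78 CPM in P and 8.19 to 8.38 CPM in AxR. Of these 8 markers 1 was tested, Cd68, which was called higher. It went from 3.39 to 8.02 CPM and made up most of the sum in both lines. Cd3e, Tyrobp, and Fcer1g were at 0, and Ptprc was at the floor. Lung epithelial markers summed to 0.577 to 1.15 CPM in P and 4.15 to 4.21 CPM in AxR. Of these 7 markers 1 was tested, Foxj1, which was called higher and passed the filter through AxR. It went from 0.578 to 3.80 CPM and made up most of the sum in AxR. Scgb1a1 and Nkx2-1 were at 0, and Sftpc was at the floor. The 6 endothelial markers reached at most 0.693 CPM and the 4 muscle and adipose markers at most 0.398 CPM summed per library, and none of either was tested. The part of these markers' cells in the HOX differences was not tested.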

How the data were processed

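RNA from 3 P and 3 AxR libraries was profiled from stranded, poly(A)-selected libraries. Samples were grouped by their titles. Per the submitters' processing notes and the study's methods, the authors checked reads with FastQC 0.11.5, aligned them to GRCm38 with STAR 2.6.0a and GENCODE annotation, and deposited estimated counts per gene from RSEM 1.3.1, before filtering and normalization. RSEM divides reads shared by gene models by likelihood, which matters where HOX models overlap. Its strand setting was not given in the sources used here.

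Estimated counts were rounded to whole numbers, filtered with filterByExpr, normalized by upper quartile (factors 0.966 to 1.02), and fitted in edgeR 4.0.16 (R 4.3.3) by glmQLFit with robust dispersions, line being the sole covariate, and glmQLFTest gave p-values. Adjusted p-values follow Benjamini and Hochberg over all 13550 genes tested, at a threshold of 0.05. The SE of a log2 fold change was derived from the test, as its absolute value divided by the square root of the F statistic. CPM were computed from the rounded counts. Exact permutation tests used log2(CPM + 0.5). Depth was 15495260 to 17294525 counts per library.

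Positions, exon lengths, and overlaps of gene models came from GENCODE M21 (53274 of the 53465 identifiers matched), and promoter windows from RefSeq. The study's methods name an earlier GENCODE release for the alignment, so the models counted may differ from these in length and overlap. HOX genes were described singly or by count, and some results for single genes are not reported here. Of cofactors and regulators, the 3 largest rises and falls among called genes were named. The neighbours with calls around HoxA, the cluster genes Hotair, Mir196b, Gm11539, and 5730596B20Rik, and the marker Cldn7 were also named, after their values were seen. The members and lists were chosen with earlier results of these data known. Alternatives were TMM, library size only, DESeq2 1.42.0, limma-voom (limma 3.58.1), no filter, at least 10 counts in every library, a replicate block, and leaving out each library. Counts of overlapping gene models were also added to HOX genes, an alternative chosen after seeing the data. The fit was tested on simulated data.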

Additional observations from a re-analysis of the deposited data

How the results depend on the processing

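Over normalizations, tools, filters, and left-out libraries, HOX genes called lower in AxR numbered 5 to 8 (7 as reported), and 1 was higher throughout. The 8, without P replicate 2, included Hoxa4, which entered that fit only through P libraries, where it was higher. DESeq2 called 5 lower, and without P replicate 3 or AxR replicate 3 the number was also 5. With a log2 fold change of at least 1 required, 0 of 10 HOX genes were higher and 3 lower, and 1 of 8 cofactors, 6 of 46 regulators, and 1 of 32 neighbours were called. By that rule 4.72% of all tested genes were lower and 7.99% higher. Hoxa13, Pknox2, Crabp2, and Jazf1 were among these and entered the test through the line where they were higher. Without such genes, 2 HOX genes were lower, 3 regulators were higher and 2 lower, and no cofactor or neighbour was called. The directions of the 9 tested HoxA genes held in every alternative in which they were tested. Beside the losses of Hoxa9 and Hoxa13 given above, Hoxa9 was lost without a filter on low counts (adjusted p = 0.0798 in edgeR). Hoxd4, not called in any of them, turned to -0.0018 with TMM, -0.013 with library size only, -0.091 with limma-voom, -0.012 without P replicate 2, -0.080 without AxR replicate 1, -0.26 without AxR replicate 2, and, with overlapping models added, -0.16 (same strand) and -0.55 (opposite strand), and was 0.33 without AxR replicate 3. For these reversals and this value the cause was not tested. With the longest transcript as length, 5 places changed in the order of P, and leaving out 1 library changed 0 to 2 places. Deviations of same-numbered libraries of the lines correlated at -0.0213, -0.0061, and -0.0217, so no shared deviation by replicate number was seen. This does not show whether the libraries were prepared in pairs. Under a replicate block, 6 HOX genes were lower and Hoxa9 was lost (log2 fold change -0.50, adjusted p = 0.0632 in edgeR). Depth limits HoxB, HoxC, and HoxD: with 1 count as the floor, 24 HOX genes were at it in P and 23 in AxR, and with 10 counts, 28 and 30.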
